A study of Homo sapiens with 24 samples.

Results

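The 32 genes described here make sterols and fatty acids or regulate that synthesis, and were taken as the rows of the deposited gene count matrix whose name equals a name on a fixed list, 32 of 55773 gene names. Of these, 30 passed the filter on low counts and were tested. The sterol pathway enzyme gene HSD17B7 had 0 to 2 reads per library and the elongase gene ELOVL6 had 0 to 10, and neither was tested. The samples were U937 cells, an established human myelomonocytic line, profiled by RNA sequencing (TruSeq kit, which does not mark strand) in 24 libraries, 3 in each of 8 groups. In 1 arm, cells received UNC0638, a small-molecule inhibitor of the histone H3 lysine 9 methyltransferases G9a and GLP, at 2 or 4 µM and were harvested after 3 days, and the vehicle DMSO was their control. In the other, lentiviral short hairpins lowered G9a (hairpins 2 and 3; the gene is EHMT2) or SUV39H1 (hairpins 2 and 4), another methyltransferase of the same residue, with 3 days of puromycin selection, and a scrambled hairpin was the control. The labels give no harvest time for DMSO and no selection for the scrambled hairpin. They do not say that the 3 replicates of a group came from separate cultures, so p-values measure the spread between these libraries, which may be technical. Infection, and selection of the knockdown cells, separate the hairpin arm from the inhibitor arm, and DMSO and scrambled cells were therefore used as separate controls. If scrambled cells were not selected, knockdown and selection cannot be told apart in comparisons with them.

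Cholesterol is built from acetyl-CoA through mevalonate, isoprenoid diphosphates, squalene and lanosterol, and fatty acids are built from the same precursor by acetyl-CoA carboxylase and fatty acid synthase. Most genes of both routes are switched on by the transcription factors SREBP-2 (gene SREBF2) and SREBP-1 (gene SREBF1), which are held in the endoplasmic reticulum by the escort protein SCAP and the retention proteins INSIG1 and INSIG2 while sterol is plentiful, and are cut and sent to the nucleus when it is scarce. INSIG1 is itself an SREBP target. Myeloid cells use this synthesis for membrane growth, and macrophages are known for handling much of their cholesterol by uptake and export.

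Library totals ran from 31545854 to 53803704 reads counted to genes. DMSO replicate 1 stood apart from the other DMSO libraries. The chi-square per gene of their counts was 9.29 and 20.7 against replicates 2 and 3, which stood at 2.74 from each other. Replicate 1 also stood apart at 2 µM UNC0638 (4.75 and 6.16, against 1.91 between replicates 2 and 3). At 4 µM it did so too (5.48 and 11.8, against 3.81). EHMT2 was lower in the G9a hairpin libraries (log2 change -0.97 from scrambled) and SUV39H1 in its own hairpin libraries (-1.55). EHMT2 also stood at -0.29 under the SUV39H1 hairpins. Levels are given in CPM, read counts scaled to a common library size, with a correction for composition. SUV39H2 lay at 13.2 to 13.9 CPM under SUV39H1 hairpin 2 and 19.9 to 21.0 under hairpin 4, from 29.9 to 34.4 in scrambled. EHMT1, the gene of GLP, lay at 53.3 to 54.4 and 58.7 to 63.5 CPM, from 82.2 to 87.8. Of the markers of the line, CD33, SPI1, LYZ, AZU1 and ITGAM were at 49.1 CPM or more in every library. MPO lay at 0.543 to 1.88 CPM and CD14 at or under 0.702 CPM, with CSF1R at 4.14 to 14.2. T cell, erythroid and epithelial markers summed to at most 0.0505 CPM, and COL1A1 reached 0.795 CPM with COL3A1 at 0. The summed level of the 8 myeloid markers, of which LYZ made up the most (267 to 2503 CPM) while CD33 (86.1 to 114) and SPI1 (121 to 162) spanned narrow ranges, differed between the groups. It was 753 to 813 CPM in DMSO, 675 to 696 and 685 to 719 at 2 and 4 µM UNC0638, 881 to 893 in scrambled, 1349 to 1388 and 1379.7 to 1452 under G9a hairpins 2 and 3, 3216 to 3259.9 under SUV39H1 hairpin 2 and 1918 to 1928 under hairpin 4.

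Promoter sequence was matched by symbol for 28 of the 32 genes (RefSeq, GRCh38.p14, 40 windows of 300 bases from 250 before to 50 after a start site). FASN, SQLE, FDFT1 and ACAT2 had no entry. The windows were searched on both strands for a sterol element, TCACNCCAC, for the CCAAT box and for GGGCGG, the letters of a GC box. Neighbouring GC boxes can share a base, as a pair does in INSIG1 and in SREBF2, where the second box runs past the end of the stretch shown. The sterol element letters were found in 1 member, SREBF2 (2.5% of the members' windows and 1.13% of 35116 windows of all genes). CCAAT was found in 20 members (60% of their windows, 34.6% of all windows) and GGGCGG in 27 (87.5% and 45%). Stretches of 250 bases upstream of the start site are shown 5′ to 3′, because SREBF2 holds the sterol element and INSIG1, SCD and STARD4 had the largest changes among the members under the G9a hairpins. Capitals mark the motifs. In SREBF2 (chr22:41832855-41833104, plus strand) the sterol element starts 133 bases before the start site, and a CCAAT box read on the other strand starts at 106 bases before it.
SREBF2: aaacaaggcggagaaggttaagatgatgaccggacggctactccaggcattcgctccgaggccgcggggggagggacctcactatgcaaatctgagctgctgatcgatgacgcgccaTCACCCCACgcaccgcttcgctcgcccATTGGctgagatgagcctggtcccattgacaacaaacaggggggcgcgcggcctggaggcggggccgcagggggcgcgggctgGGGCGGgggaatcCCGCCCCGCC
INSIG1: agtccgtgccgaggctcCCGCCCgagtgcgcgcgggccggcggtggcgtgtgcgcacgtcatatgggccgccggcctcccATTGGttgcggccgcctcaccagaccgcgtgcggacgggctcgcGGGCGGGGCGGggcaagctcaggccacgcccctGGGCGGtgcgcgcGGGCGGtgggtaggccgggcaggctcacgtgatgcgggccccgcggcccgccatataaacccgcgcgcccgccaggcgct
SCD: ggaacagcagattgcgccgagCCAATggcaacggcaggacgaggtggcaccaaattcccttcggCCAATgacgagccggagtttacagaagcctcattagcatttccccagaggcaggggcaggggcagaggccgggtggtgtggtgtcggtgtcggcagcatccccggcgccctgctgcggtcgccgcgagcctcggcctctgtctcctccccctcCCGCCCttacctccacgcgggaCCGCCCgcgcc
STARD4: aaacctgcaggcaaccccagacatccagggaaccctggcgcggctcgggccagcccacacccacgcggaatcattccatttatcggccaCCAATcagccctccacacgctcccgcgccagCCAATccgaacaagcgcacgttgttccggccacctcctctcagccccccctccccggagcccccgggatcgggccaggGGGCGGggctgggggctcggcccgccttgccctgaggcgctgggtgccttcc
The INSIG1 stretch (chr7:155297628-155297877, plus strand) holds 1 CCAAT box on the other strand at 170 bases before the start, and 5 GC boxes. SCD (chr10:100346983-100347232, plus strand) and STARD4 (chr5:111512536-111512785, minus strand) each hold 2 CCAAT boxes. A match of letters is a description of the window and not a measured binding site, and no match says only that these letters are not in this window.

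The controls differed for these genes before any comparison with a treated group. Between scrambled and DMSO cells, 21 of the 30 tested members were higher in scrambled and 1, INSIG2, was lower (edgeR quasi-likelihood test, Benjamini-Hochberg adjusted p under 0.05 over all 20147 genes tested), where 14.9% of all genes were higher and 16.5% lower. The members' median log2 change was 0.25, against -0.01 over all genes. INSIG1 (0.74 ± 0.05 (SE), adjusted p = 2.2e-12), the delta-6 desaturase FADS2 (0.47 ± 0.05 (SE), adjusted p = 1.91e-07) and FASN (0.39 ± 0.09 (SE), adjusted p = 0.000794) rose most, and INSIG2 fell by 0.69 ± 0.06 (SE, adjusted p = 1.28e-09). PMVK passed narrowly (adjusted p = 0.0497) and lost its call without DMSO replicate 1 and without scrambled replicate 1 or 3. These are bulk libraries, so fewer cells carrying an RNA and less of it per cell cannot be told apart, here or in what follows.

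Against DMSO, 3 members were called at 2 µM UNC0638 and 13 at 4 µM, with log2 changes between -0.40 and 0.40. At 2 µM, SCD (0.15 ± 0.04 (SE), adjusted p = 0.00607) and the delta-5 desaturase FADS1 (0.13 ± 0.04 (SE), adjusted p = 0.0279) were higher than in DMSO and TM7SF2 was lower (-0.30 ± 0.09 (SE), adjusted p = 0.0305). That is 2 higher and 1 lower of 30, a share near that of all genes, of which 3.83% and 3.34% were called. None of the 3 calls was made when DMSO and 2 µM libraries were fitted without the other groups, and leaving out 1 library gave 1 to 6 calls: 6 without DMSO replicate 1, and 1 without DMSO replicate 3 or 2 µM replicate 2. At 4 µM, 10 members were higher and 3 lower, against 10.2% and 9.73% of all genes, with a median of 0.09 over the members (0.045 without DMSO replicate 1) and -0.01 over all genes. The 10 were STARD4, SC5D, FADS1, IDI1, INSIG1, FADS2, MSMO1, SCD, CYP51A1 and SQLE, with log2 changes of 0.19 to 0.40, and the 3 were TM7SF2, DHCR7 and INSIG2 (-0.40 to -0.21). The calls of IDI1, MSMO1, DHCR7 and INSIG2 were each lost without at least 1 library of either group (without DMSO replicate 3, IDI1, SQLE, MSMO1 and DHCR7 were lost). With DMSO and 4 µM libraries fitted alone, 7 calls were made, without IDI1, SQLE, CYP51A1, MSMO1, DHCR7 and INSIG2. Between the doses, INSIG1 (0.20 ± 0.05 (SE), adjusted p = 0.0149) and FADS1 (0.17 ± 0.04 (SE), adjusted p = 0.00827) were higher at 4 µM and no member lower, against 1.39% and 0.452% of all genes. Leaving out any 1 of the 6 libraries removed 1 of these calls, INSIG1 in 4 cases and FADS1 in 2.

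Under the G9a hairpins, 19 members were lower than in scrambled cells and 2, MVK and TM7SF2, were higher, where 24.9% of all genes were lower and 25.0% higher. The members' median was -0.14, against 0.01 over all genes. STARD4 (-0.84 ± 0.06 (SE)), SCD (-0.71 ± 0.03 (SE)), INSIG1 (-0.70 ± 0.04 (SE)) and SREBF1 (-0.65 ± 0.06 (SE)) fell most. Under the SUV39H1 hairpins 20 were lower and 3 higher, against 32.7% and 35.1%, with a median of -0.40 against 0.03. SCD (-1.13 ± 0.03 (SE)), INSIG1 (-1.06 ± 0.04 (SE)) and FASN (-0.98 ± 0.07 (SE)) fell most, and TM7SF2, STARD4 and INSIG2 rose. SE and p of a hairpin mean come from the spread within each hairpin's libraries and leave out the difference between the hairpins. Both knockdowns share the scrambled libraries, and both have higher summed myeloid markers than scrambled cells, whose part in these changes was not tested.

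**Figure D1:**
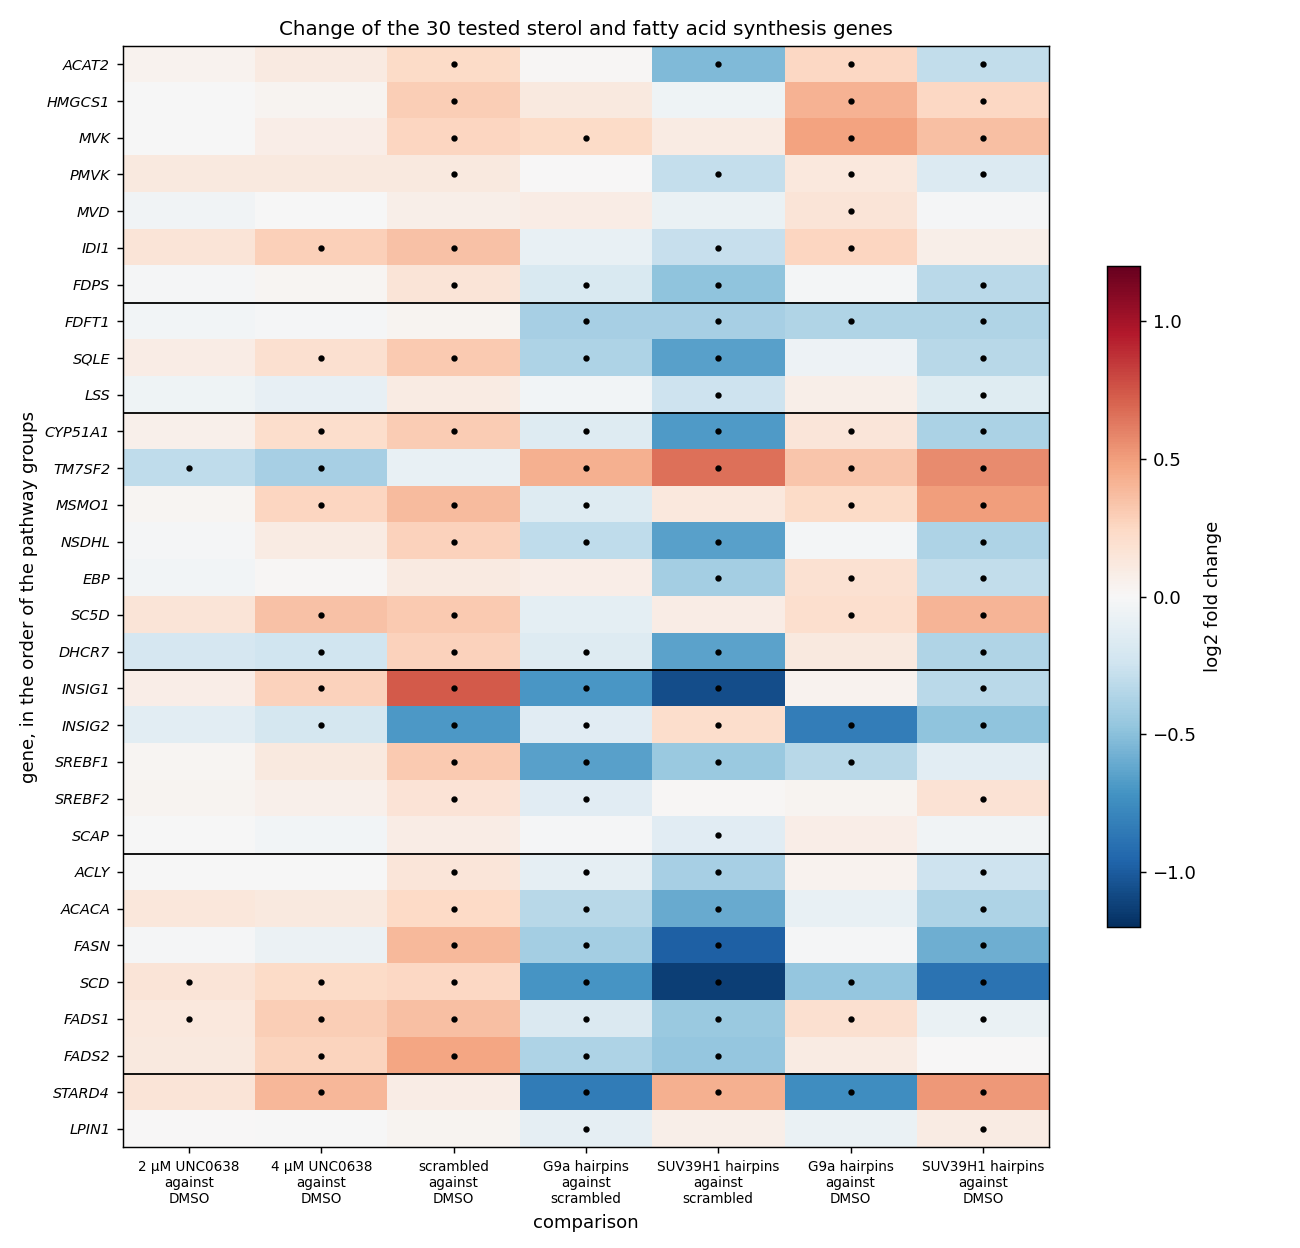
Log2 fold change (colour) of the 30 tested members (rows, with lines between pathway groups) in 7 comparisons (columns), with a dot where the adjusted p was under 0.05. The scrambled against DMSO column is mostly red and the knockdown against scrambled columns mostly blue, with 21 members higher, and 19 and 20 lower; against DMSO the G9a column turns to 12 higher and 5 lower.

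Among the regulators, INSIG1 (hg19 chr7:155089486-155101945), the retention protein that is itself an SREBP target, moved over the widest range. It stood at 60.98, 58.9 and 55.6 CPM in DMSO, 65.9, 60.3 and 59.4 at 2 µM, 72.4, 72.6 and 68 at 4 µM and 101, 98.4 and 92.8 in scrambled cells. Under hairpins it stood at 61.9, 62.98 and 60.1 (G9a hairpin 2), 58.2, 57.3 and 59.8 (G9a hairpin 3), 43.1, 41.9 and 41.5 (SUV39H1 hairpin 2) and 52.7, 51.9 and 50.1 CPM (SUV39H1 hairpin 4). The scrambled libraries were the highest of all 24, the G9a libraries overlapped those of DMSO, and the SUV39H1 libraries lay below every other. From scrambled, INSIG1 fell by 0.70 on the log2 scale under the G9a hairpins (adjusted p = 4.35e-14) and by 1.06 under the SUV39H1 hairpins (adjusted p = 1.34e-18). From DMSO, the G9a hairpin change was 0.04 ± 0.04 (SE), with a 95% interval of -0.04 to 0.12, and the SUV39H1 hairpin change -0.33 ± 0.04 (SE) (adjusted p = 7.34e-08). At 4 µM UNC0638 it rose by 0.28 ± 0.05 (SE) from DMSO (adjusted p = 4.89e-05) and stood at -0.46 against scrambled (adjusted p = 7.25e-09).

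INSIG2 (hg19 chr2:118846028-118868573), the second retention protein, had the opposite order in the controls. Its levels were 55.8, 50.9 and 49.7 CPM in DMSO, 47.2, 47.5 and 48.5 at 2 µM, 47.1, 45.7 and 42.7 at 4 µM and 33.1, 32.8 and 30.9 in scrambled. The hairpin libraries gave 28.2, 31.8 and 27.7 (G9a 2), 29.4, 27.7 and 31.7 (G9a 3), 41.03, 42.01 and 37.1 (SUV39H1 2) and 35.6, 34.8 and 34.7 CPM (SUV39H1 4). All 15 libraries made with a hairpin were below the 9 without one. Within the hairpin arm, the SUV39H1 libraries lay above scrambled (0.21 ± 0.05 (SE), adjusted p = 0.000813) and the G9a libraries overlapped it (-0.13 ± 0.05 (SE), adjusted p = 0.0394). The G9a call was lost when any 1 of 6 of the 9 libraries was left out, among them scrambled replicate 1 (-0.11). The fall at 4 µM (-0.21 ± 0.06 (SE), adjusted p = 0.0113) was not called without DMSO replicate 1 or without 4 µM replicate 3.

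SREBF1 was lower than in scrambled cells under both knockdowns, and SREBF2 under the G9a hairpins. SREBF1 (hg19 chr17:17713713-17740325), the regulator most tied to fatty acid synthesis, was at 48.9, 56.7 and 62.8 CPM in DMSO, 53.7, 59.7 and 58.2 at 2 µM, 61.3, 58.6 and 63.2 at 4 µM and 68.1, 67.6 and 74.3 in scrambled. Under the G9a hairpins it was at 48.4, 41.3 and 40.5 (hairpin 2) and 48.04, 45.5 and 44.5 CPM (hairpin 3), and under the SUV39H1 hairpins at 44.9, 43.99 and 42.3 (hairpin 2) and 58.9, 61.3 and 61.5 (hairpin 4). DMSO replicate 1 was low, and the DMSO libraries lay above those of the G9a hairpins and around those of SUV39H1 hairpin 4. From scrambled, SREBF1 fell by 0.65 under the G9a hairpins (adjusted p = 9.41e-10), by 0.68 under SUV39H1 hairpin 2 (adjusted p = 2.8e-09) and by 0.21 under hairpin 4 (adjusted p = 0.00996). SREBF2 (hg19 chr22:42229109-42303312), the main regulator of sterol enzymes, was at 67.2, 73.8 and 74.1 CPM in DMSO, 69.7, 74.4 and 75.3 at 2 µM, 70.5, 73.8 and 79.2 at 4 µM and 78.8, 79.8 and 82.2 in scrambled. Its hairpin levels were 72.9, 71.2 and 70.6 (G9a 2), 74.5, 74.6 and 75.3 (G9a 3), 81.8, 83.6 and 84.8 (SUV39H1 2) and 76.8, 79.1 and 79.6 CPM (SUV39H1 4). The G9a libraries were all below scrambled (-0.13 ± 0.04 (SE), adjusted p = 0.00412), and the SUV39H1 mean differed from scrambled by 0.01, with a 95% interval of -0.07 to 0.09. Reads of SREBF1 and of its overlapping neighbour RAI1 cannot be told apart by strand in these libraries, and RAI1 changed by -0.04 and -0.08 under the G9a and SUV39H1 hairpins.

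SCAP, the escort of both SREBPs, was at 101, 117 and 121 CPM in DMSO, 111, 116 and 110 at 2 µM, 104, 108 and 119 at 4 µM and 116, 114 and 129.99 in scrambled. The hairpin libraries held 124, 111 and 114 (G9a 2), 119.7, 125 and 122 (G9a 3), 111, 112 and 112 (SUV39H1 2) and 103, 106 and 112 CPM (SUV39H1 4). The SUV39H1 libraries were all below those of scrambled and the other groups overlapped it. Its 1 call among the 2 doses against DMSO, the 2 knockdowns against scrambled and scrambled against DMSO was a fall of 0.14 under the SUV39H1 hairpins (adjusted p = 0.0237), which was lost without scrambled replicate 3 or without replicate 1 of SUV39H1 hairpin 4. The G9a hairpin change was -0.01, with a 95% interval of -0.12 to 0.10.

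**Figure D2:**
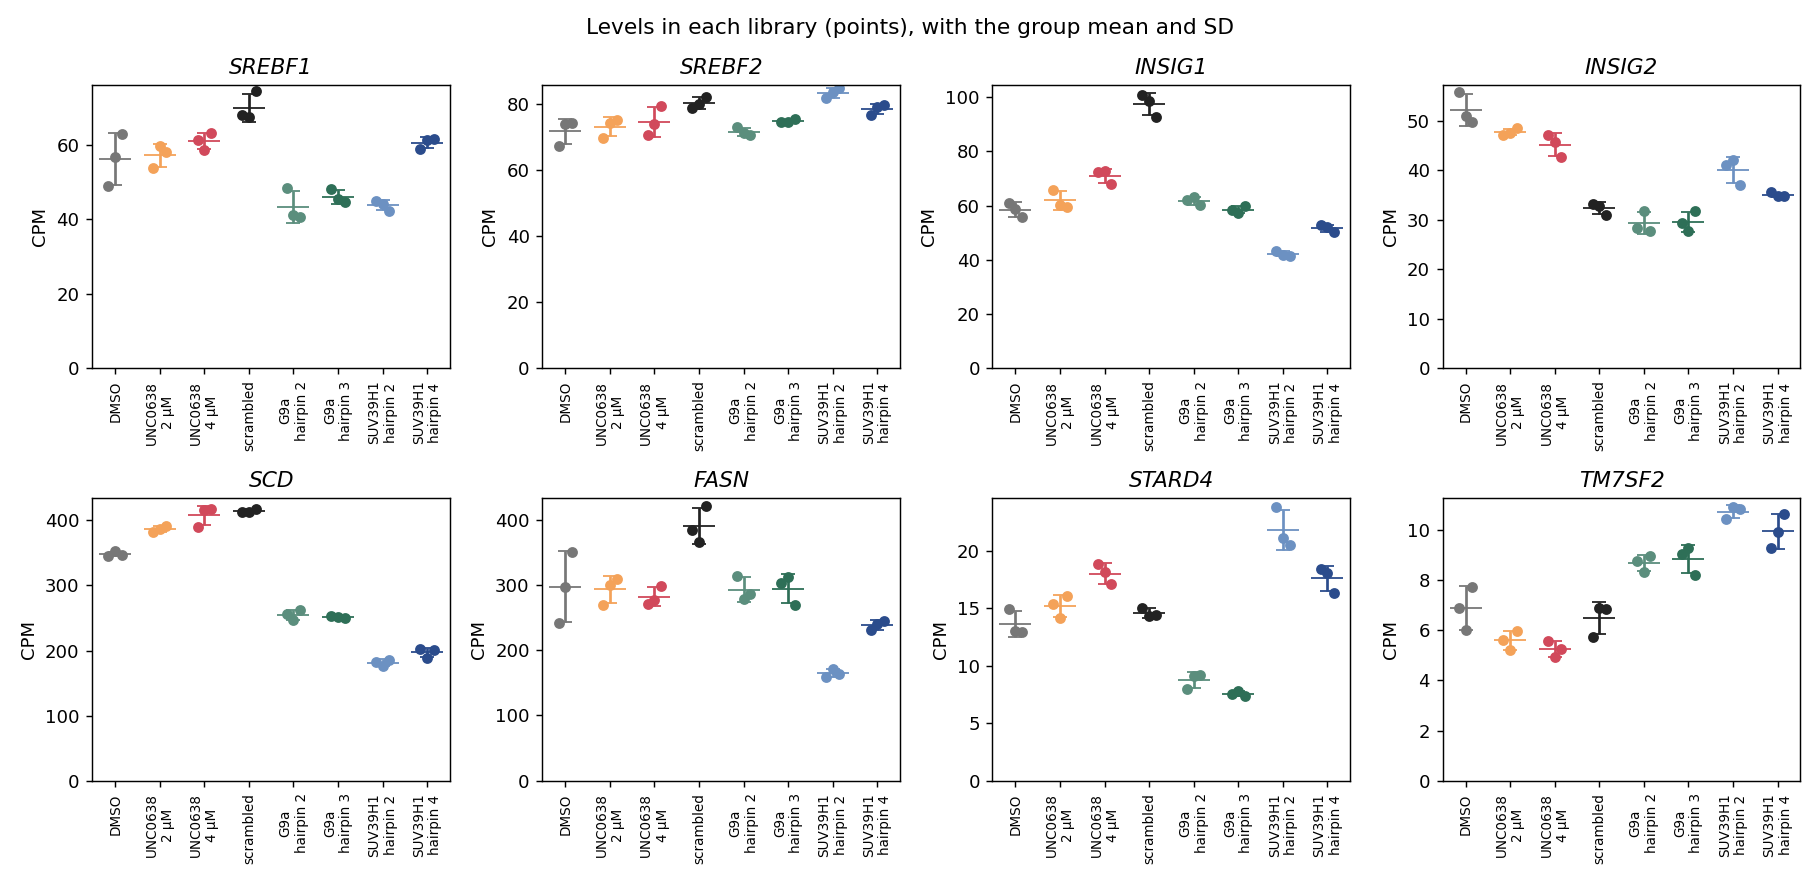
CPM (vertical axis, from 0) of 8 members in each of the 3 libraries of the 8 groups (points), with the group mean and SD (bars). INSIG1 is highest in the scrambled libraries (92.8 to 101 CPM), INSIG2 is lower in all hairpin groups than in DMSO, and SCD steps down from scrambled through the G9a to the SUV39H1 hairpins.

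In fatty acid synthesis, all 6 tested members were higher in scrambled than in DMSO. All 6 were lower under the G9a hairpins and under the SUV39H1 hairpins than in scrambled. Of all genes, 14.9% were higher in scrambled, and 24.9% and 32.7% were lower under the G9a and SUV39H1 hairpins. The ACLY call under the G9a hairpins was lost without scrambled replicate 3, without replicate 3 of G9a hairpin 3 and with no low-count filter. SCD (hg19 chr10:102106881-102124591), which puts the first double bond into stearoyl-CoA, had the highest level per kilobase of the 32 genes in DMSO (64.98 CPM per kilobase of gene length). Its libraries held 346, 352 and 347 CPM in DMSO, 382, 387 and 392 at 2 µM, 390.3, 415 and 417 at 4 µM and 412, 413 and 418 in scrambled. They held 256, 247 and 262 under G9a hairpin 2, 253, 251 and 249 under hairpin 3, 182, 176 and 186 under SUV39H1 hairpin 2 and 202, 189 and 201 under hairpin 4. No knockdown library reached a control library of either kind. SCD fell by 0.71 (adjusted p = 2.57e-16) and 1.13 (adjusted p = 2.61e-21) from scrambled, and by 0.46 (adjusted p = 1.51e-12) and 0.88 (adjusted p = 1.21e-18) from DMSO. UNC0638 raised it from DMSO at both doses (0.15 and 0.23), while 4 µM differed from scrambled by -0.02, with a 95% interval of -0.10 to 0.05. The row AL139819.1, on the same strand inside SCD, changed by -0.71 and -1.12 under the knockdowns.

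FASN (hg19 chr17:80036214-80056208), the synthase itself, was at 242, 298 and 351 CPM in DMSO, 269.96, 300.4 and 309.7 at 2 µM, 270.3, 277 and 299 at 4 µM and 385, 365 and 421 in scrambled. It was at 314, 278 and 286 under G9a hairpin 2, 303, 312 and 269 under hairpin 3, 159, 172 and 163 under SUV39H1 hairpin 2 and 231, 240.3 and 245 under hairpin 4. DMSO had the widest spread of any group, from 242 to 351 CPM, and spanned all G9a and UNC0638 libraries. From scrambled, FASN fell by 0.41 ± 0.07 (SE) under the G9a hairpins (adjusted p = 3.68e-05) and by 0.98 ± 0.07 under the SUV39H1 hairpins (adjusted p = 3.99e-12). From DMSO the G9a hairpin change was -0.02, with a 95% interval of -0.17 to 0.14, and the SUV39H1 change -0.58 (adjusted p = 1.2e-07). ACACA, the carboxylase that makes malonyl-CoA, was at 49.9, 51.2 and 51.2 CPM in DMSO, 54.3, 54.6 and 58.04 at 2 µM, 51.6, 57.2 and 56.5 at 4 µM and 57.2, 61.9 and 60.9 in scrambled. Its hairpin levels were 45.6, 46.1 and 48.04 (G9a 2), 50.3, 48.5 and 47.2 (G9a 3), 36.6, 36.2 and 39.2 (SUV39H1 2) and 40.3, 40.7 and 43.6 CPM (SUV39H1 4). Scrambled was above all hairpin libraries, and the fall was 0.33 under G9a and 0.61 under SUV39H1 hairpins (adjusted p = 1.44e-07 and 5.57e-13). The remaining members of the group, the citrate lyase ACLY and the desaturases FADS1 and FADS2, fell by 0.10, 0.17 and 0.37 under the G9a hairpins and by 0.40, 0.45 and 0.46 under the SUV39H1 hairpins. The FADS1 and FADS2 rows overlap each other on opposite strands, so their reads cannot be told apart there.

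In the mevalonate arm, 6 of 7 members were higher in scrambled than in DMSO, where 14.9% of all genes were higher. Under the G9a hairpins 1 was lower, FDPS, and 1 higher, MVK (24.9% and 25.0% of all genes). Under the SUV39H1 hairpins 4 were lower, ACAT2, PMVK, IDI1 and FDPS, and 0 higher (32.7% and 35.1% of all genes). The HMG-CoA synthase gene HMGCS1, mevalonate kinase MVK and the decarboxylase MVD were not called under the SUV39H1 hairpins, with changes of -0.05 (-0.16 to 0.05), 0.10 (-0.02 to 0.22) and -0.08 (-0.20 to 0.04, 95% intervals). ACAT2, the cytosolic thiolase that opens the route, was at 61.8, 59.9 and 59.8 CPM in DMSO, 61.8, 61.8 and 63.2 at 2 µM, 65.3, 64.6 and 65.4 at 4 µM and 70.8, 72.95 and 69.2 in scrambled. Under G9a hairpins it was at 68.9, 69.4 and 73.7 (hairpin 2) and 70.4, 70.9 and 77.9 (hairpin 3), and under SUV39H1 hairpins at 53.6, 51.4 and 51.9 (hairpin 2) and 45.7, 47.8 and 46.1 (hairpin 4). The G9a libraries overlapped scrambled (0.02, 95% interval -0.05 to 0.09) and the SUV39H1 libraries lay below every other (-0.53 ± 0.03 (SE), adjusted p = 4.77e-13). TCP1 and SOD2 overlap ACAT2 on the opposite strand with more reads each, and TCP1 changed by -0.77 under the SUV39H1 hairpins and SOD2 by -0.20. MVK, which rose by 0.23 ± 0.06 (SE) under the G9a hairpins (adjusted p = 0.0027), overlaps MMAB on the opposite strand (-0.05). FDPS, which makes farnesyl diphosphate, fell under both knockdowns (-0.18 and -0.48, adjusted p = 1.2e-05 and 1.02e-13), while RUSC1-AS1 on its opposite strand changed by -0.02 and -0.26. PMVK and IDI1 fell by 0.29 and 0.28 under the SUV39H1 hairpins.

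From squalene to lanosterol, all 3 members were lower under the SUV39H1 hairpins and 2 of 3 under the G9a hairpins. Of all genes, 32.7% and 24.9% were lower in these comparisons. SQLE, the epoxidase that is a slow step of the route, was at 71.9, 65.5 and 61.4 CPM in DMSO, 72.4, 69.4 and 68.9 at 2 µM, 77.5, 76.3 and 72.9 at 4 µM and 83.2, 85.3 and 78.9 in scrambled. It was at 64.8, 66.6 and 64.2 (G9a 2), 65.7, 60.2 and 60.6 (G9a 3), 53.3, 50.03 and 52.1 (SUV39H1 2) and 55.5, 54.1 and 50.6 CPM (SUV39H1 4). G9a libraries overlapped DMSO, and SUV39H1 libraries were the lowest. SQLE fell from scrambled by 0.37 and 0.65 (adjusted p = 6.4e-08 and 5.22e-13), and from DMSO by 0.33 under the SUV39H1 hairpins (adjusted p = 3.09e-07). For the squalene synthase FDFT1, scrambled and DMSO differed by 0.04 (95% interval -0.04 to 0.11). FDFT1 fell from scrambled by 0.39 under G9a and 0.40 under SUV39H1 hairpins, and from DMSO by 0.36 and 0.36 (adjusted p = 1.11e-10, 2.2e-11, 6.29e-10 and 2.3e-10). The cyclase LSS fell by 0.25 under the SUV39H1 hairpins (adjusted p = 3.81e-05).

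Of the 7 tested enzymes from lanosterol to cholesterol, 4 were lower, 1 higher and 2 not called under the SUV39H1 hairpins. Of all genes, 32.7% were lower and 35.1% higher, so the share called was near that of all genes. CYP51A1, the lanosterol demethylase, was at 25.6, 23.7 and 22.7 CPM in DMSO, 24.6, 23.9 and 26.7 at 2 µM, 27.6, 28.8 and 26.99 at 4 µM and 30.2, 28.6 and 30.1 in scrambled. Its hairpin libraries held 26.7, 26.3 and 27.4 (G9a 2), 25.7, 26.7 and 26.6 (G9a 3), 15.2, 14.5 and 15.5 (SUV39H1 2) and 23.9, 21.98 and 22.05 CPM (SUV39H1 4). SUV39H1 hairpin 2 stood apart from all other groups. CYP51A1 fell by 0.97 under hairpin 2 and by 0.38 under hairpin 4 (adjusted p = 1.4e-14 and 3.58e-07), and by 0.16 under the G9a hairpins (adjusted p = 0.00483). The overlapping row LRRD1, on the same strand, changed by -0.64 under the SUV39H1 hairpins.

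NSDHL, a C4-demethylation enzyme, was at 28.4, 33.1 and 32.9 CPM in DMSO, 28.9, 32.6 and 31.9 at 2 µM, 32.2, 32.8 and 35.7 at 4 µM and 36.2, 37.2 and 40.9 in scrambled. Under hairpins it was at 31.1, 30.5 and 31.9 (G9a 2), 29.6, 31.3 and 31.2 (G9a 3), 20.9, 24.4 and 22.2 (SUV39H1 2) and 26.4, 26.2 and 25.95 CPM (SUV39H1 4). The fall from scrambled was 0.30 under G9a and 0.65 under SUV39H1 hairpins (adjusted p = 3.57e-05 and 3.35e-11), with every hairpin library below scrambled. DHCR7, the last reductase of one branch, was at 31.7, 37.7 and 38.04 CPM in DMSO, 29.3, 32.96 and 30.8 at 2 µM, 27.4, 29.3 and 34.1 at 4 µM and 42.8, 40.2 and 46.8 in scrambled. It was at 40.1, 38.9 and 38.04 (G9a 2), 39.6, 39.3 and 36.7 (G9a 3), 26.4, 25.1 and 27.02 (SUV39H1 2) and 29.1, 29.3 and 29.7 CPM (SUV39H1 4). It was lower at 4 µM UNC0638 than in DMSO (-0.24 ± 0.07 (SE), adjusted p = 0.0177) and than in scrambled (-0.51, adjusted p = 2.25e-06), though its 4 µM libraries overlapped DMSO and 4 of the 6 single-library omissions removed the first call. It fell by 0.64 under the SUV39H1 hairpins (adjusted p = 5.54e-10), and its G9a call (-0.16, adjusted p = 0.033) was lost in 4 of 9 single-library omissions. EBP, the sterol isomerase, fell by 0.41 (adjusted p = 1.99e-07).

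TM7SF2, a C14 sterol reductase, rose under the knockdowns where CYP51A1 and NSDHL fell. It was at 6.90, 5.99 and 7.74 CPM in DMSO, 5.63, 5.21 and 5.98 at 2 µM, 5.56, 4.93 and 5.27 at 4 µM and 5.73, 6.88 and 6.85 in scrambled. It was at 8.75, 8.34 and 8.97 (G9a 2), 9.06, 9.29 and 8.21 (G9a 3), 10.5, 10.9 and 10.8 (SUV39H1 2) and 9.27, 9.94 and 10.7 CPM (SUV39H1 4). Every hairpin knockdown library was above, and every UNC0638 library below, those of DMSO, the highest 2 µM library by a narrow margin. It rose by 0.42 and 0.66 from scrambled (adjusted p = 2.3e-05 and 6.1e-09) and fell by 0.40 at 4 µM from DMSO (adjusted p = 0.00137). VPS51, which overlaps TM7SF2 on the same strand and has more reads, changed by 0.10, -0.29 and -0.28 in these comparisons. The C4 oxidase MSMO1 was at 10.2, 9.64 and 9.32 CPM in DMSO, 10.7, 9.40 and 9.65 at 2 µM, 11.9, 12.5 and 10.6 at 4 µM and 14, 12.9 and 11.2 in scrambled. Under hairpins MSMO1 was at 11.5, 12.1 and 11.2 (G9a 2), 11.5, 10.9 and 11.1 (G9a 3), 15.2, 15.2 and 13.996 (SUV39H1 2) and 13.4, 13.1 and 11.97 CPM (SUV39H1 4). It rose by 0.38 in scrambled and by 0.50 under the SUV39H1 hairpins from DMSO (adjusted p = 0.000308 and 2.11e-07), and its small G9a call (-0.15, adjusted p = 0.0499) was lost in 7 of the 9 single-library omissions. SC5D, the C5 desaturase, likewise rose from DMSO in scrambled (0.31), at 4 µM (0.35) and under the SUV39H1 hairpins (0.40), with adjusted p = 0.00141, 0.000826 and 3.83e-06. Neither gene was called for the SUV39H1 hairpin mean against scrambled. The changes were 0.12 for MSMO1 (95% interval -0.005 to 0.25) and 0.09 for SC5D (-0.04 to 0.21).

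STARD4 (hg19 chr5:110831731-110848288), a protein that carries sterol between membranes, separated the knockdowns. It was at 14.9, 13.03 and 12.9 CPM in DMSO, 15.3, 14.1 and 16.04 at 2 µM, 18.8, 18.2 and 17.1 at 4 µM and 15.1, 14.3 and 14.4 in scrambled. It was at 7.98, 9.14 and 9.16 (G9a 2), 7.58, 7.78 and 7.33 (G9a 3), 23.8, 21.1 and 20.5 (SUV39H1 2) and 18.4, 18.02 and 16.4 CPM (SUV39H1 4). The G9a libraries were below all others and the SUV39H1 libraries above both controls. STARD4 fell by 0.84 ± 0.06 (SE, adjusted p = 2.87e-11) and rose by 0.43 ± 0.06 (SE) (adjusted p = 4.21e-07), and the knockdowns differed by 1.27 ± 0.05 (SE) (adjusted p = 1.2e-17). At 4 µM UNC0638 it rose by 0.40 ± 0.07 (SE) from DMSO (adjusted p = 9.69e-05). The antisense gene STARD4-AS1 overlaps STARD4 on the other strand, and the library kit does not mark strand. Its counts exceeded those of STARD4 and changed by 1.18 under the G9a hairpins, 0.41 under the SUV39H1 hairpins and -0.44 at 4 µM UNC0638. LPIN1, a phosphatidate phosphatase, was lower than in scrambled under the G9a hairpins (-0.11, adjusted p = 0.0244), a call lost without scrambled replicate 2 or 3 or without replicate 3 of G9a hairpin 3.

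For some members the direction depended on the control. Against DMSO in place of scrambled, the G9a hairpins gave 12 members higher and 5 lower, where 22.5% and 24.1% of all genes were called, and the members' median was 0.07 in place of -0.14. That median rested on single DMSO libraries: it was 0.016, with 9 members higher, without DMSO replicate 1 and 0.12 without replicate 3. The 5 lower were INSIG2, STARD4, SCD, FDFT1 and SREBF1. Of these, STARD4 (-0.75), SCD (-0.46), FDFT1 (-0.36) and SREBF1 (-0.33) were lower than both controls. INSIG2 (-0.83) was also called lower than both, but its G9a libraries overlapped scrambled. Its call against scrambled was lost in most single-library omissions, as given above. CYP51A1, MSMO1 and FADS1 were called lower than scrambled and higher than DMSO, though the call of CYP51A1 against DMSO was lost without DMSO replicate 3 and that of MSMO1 against scrambled in 7 of 9 single-library omissions. Without DMSO replicate 1, PMVK, MVD and EBP were no longer called higher than DMSO. The SUV39H1 hairpins gave 8 higher and 17 lower against DMSO, where 29.9% and 30.8% of all genes were called, with a median of -0.16. For UNC0638 the change of control worked in the same sense: against scrambled, 13 members were lower and 2 higher at 4 µM (16.3% and 17.6% of all genes), and 18 lower and 1 higher at 2 µM (14.7% and 16.6%). INSIG1 and FADS2 were called higher than DMSO and lower than scrambled at 4 µM. INSIG2, the 1 member higher at both doses than in scrambled (0.57 and 0.49), was called lower than DMSO at 4 µM. STARD4 was higher than both controls at 4 µM. Comparisons that cross the arms differ in infection and vehicle at once, and for the knockdown cells also in selection, and these cannot be told apart. For scrambled cells the labels give no selection.

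**Figure D3:**
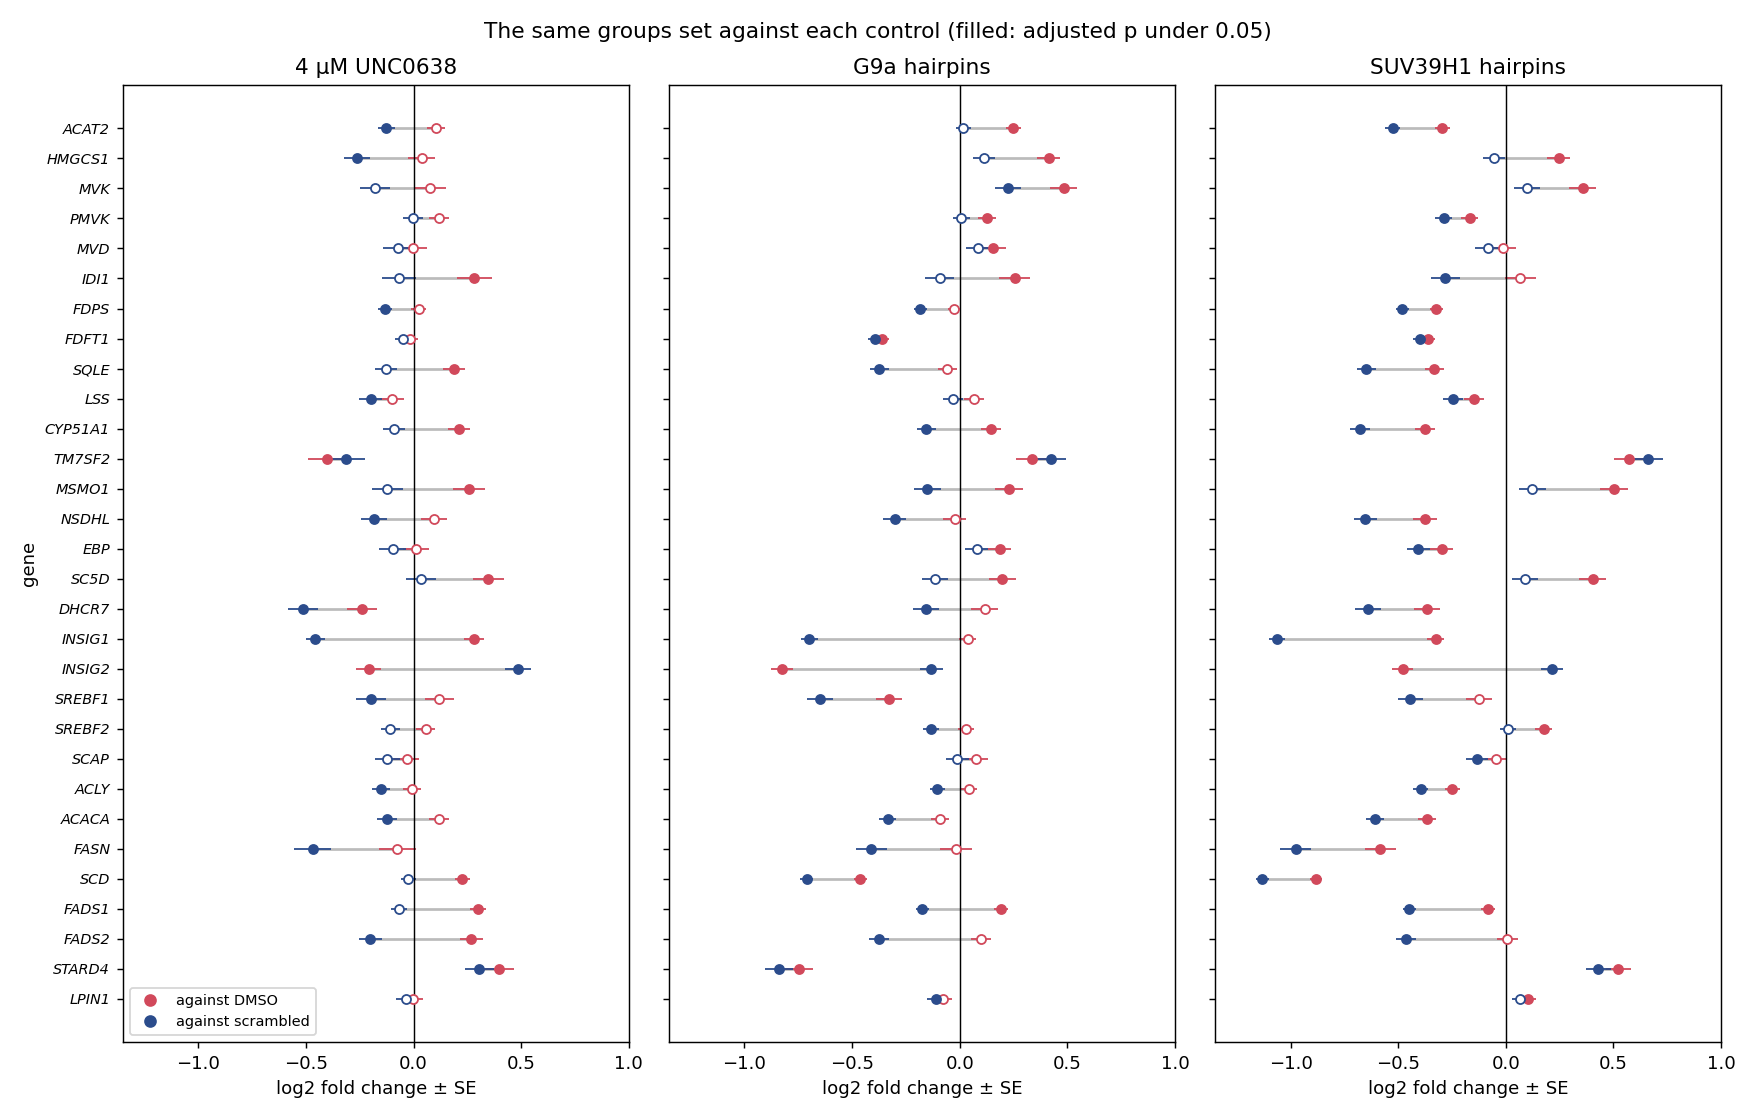
Log2 fold change with its SE (horizontal axis) of each tested member (rows) against DMSO (red) and against scrambled (blue), for 4 µM UNC0638, the G9a hairpins and the SUV39H1 hairpins, filled where the adjusted p was under 0.05. The distance between the points of a row is the scrambled against DMSO difference, largest for INSIG1 (0.74) and INSIG2 (-0.69), and STARD4, SCD and FDFT1 stay on the same side of 0 under the knockdowns whichever control is used.

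The inhibitor and the G9a hairpins aim at the same enzyme, and their responses, each against its own control, were compared directly. For 17 members the UNC0638 response at 4 µM was above the G9a hairpin response and for 1, TM7SF2, below it, where 22.5% and 22.3% of all genes were called. The difference was 1.24 ± 0.09 (SE) for STARD4, 0.98 ± 0.06 (SE) for INSIG1, 0.94 ± 0.05 (SE) for SCD and 0.77 ± 0.09 (SE) for SREBF1 (adjusted p = 4.4e-11, 7.33e-13, 1.2e-14 and 1.46e-07), and -0.83 for TM7SF2 (adjusted p = 1.4e-06). UNC0638 also inhibits GLP, and the labels give neither infection nor selection for the inhibitor arm. Between the knockdowns, which need no control, 21 members were lower under the SUV39H1 than under the G9a hairpins and 8 higher, against 32.9% and 32.6% of all genes. FASN (-0.57 ± 0.06 (SE)), ACAT2 (-0.54 ± 0.03 (SE)) and CYP51A1 (-0.52 ± 0.04 (SE)) were the lowest and STARD4 the highest, followed by INSIG2 (0.35 ± 0.04 (SE), adjusted p = 6.74e-08). FDFT1 was not called, at -0.0031 with a 95% interval of -0.06 to 0.05. The summed myeloid markers differ between the same groups, as given above, and their part in these differences was not tested.

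The SUV39H1 hairpins differed from each other. Of the members, 8 were lower and 6 higher under hairpin 2 than under hairpin 4, a share near that of all genes, of which 22.0% and 20.9% were called. CYP51A1 (-0.59 ± 0.05 (SE), adjusted p = 1.67e-09), FASN (-0.54 ± 0.09 (SE), adjusted p = 1.2e-05) and SREBF1 (-0.47 ± 0.07 (SE), adjusted p = 3.99e-06) were the furthest below, and SC5D (0.42 ± 0.07 (SE), adjusted p = 1.52e-05) and STARD4 (0.31 ± 0.06 (SE), adjusted p = 0.000331) the furthest above. The targeted gene itself lay at 18.2 to 18.9 CPM under hairpin 2 and 19.8 to 23.2 under hairpin 4, from 56.5 to 59.8 in scrambled. MSMO1 and ACACA lost their calls in 3 of 6 single-library omissions. Against scrambled, SC5D was higher under hairpin 2 (0.30, adjusted p = 0.000472) and not called under hairpin 4 (-0.12, adjusted p = 0.134), and SCD fell under both (-1.19 and -1.07). Between G9a hairpins 2 and 3, 0 members were called by edgeR's quasi-likelihood test and by DESeq2, 1 had an unadjusted p under 0.05, and 0.00496% of all genes were called in either direction (1 gene each way).

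**Figure D4:**
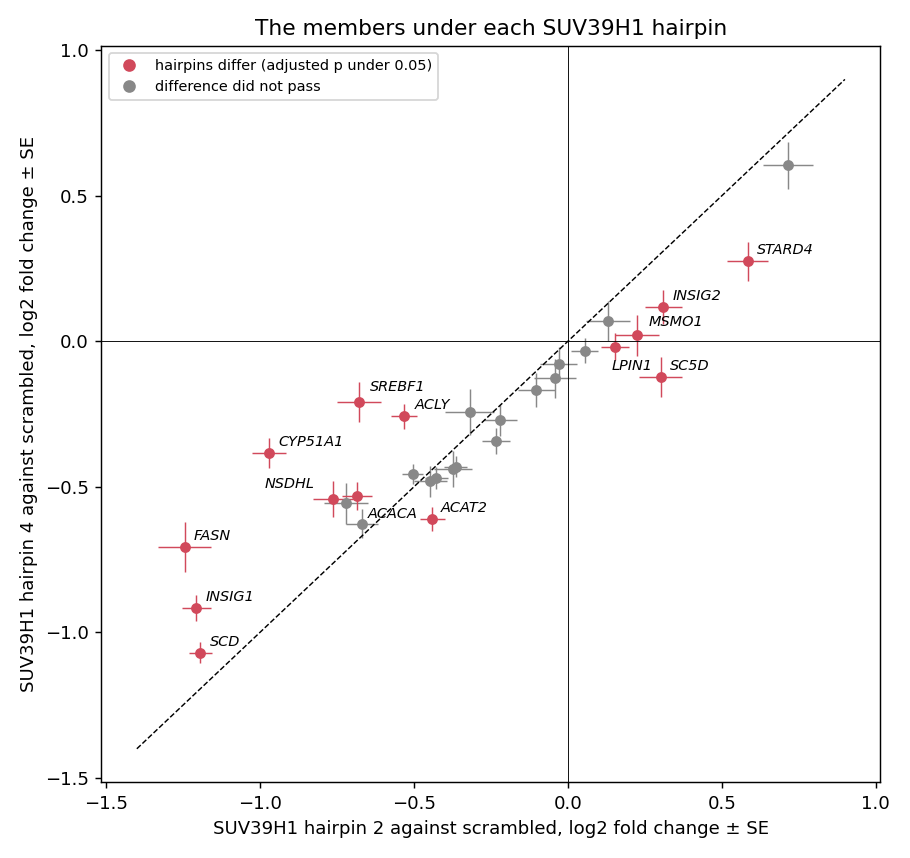
Log2 fold change with SE of each tested member under SUV39H1 hairpin 2 (horizontal axis) and hairpin 4 (vertical axis) against scrambled, in red and named where the hairpins differed at adjusted p under 0.05. Both axes share the scrambled libraries. Points above the dashed line of equality, such as FASN and CYP51A1, fell further under hairpin 2, and points below it, such as SC5D and STARD4, were higher under hairpin 2.

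Genes around the pathway were counted by function, and each count is to be read against the shares of all genes called: 10.2% higher and 9.73% lower at 4 µM, 25.0% and 24.9% under the G9a hairpins, and 35.1% and 32.7% under the SUV39H1 hairpins. A count near these shares is no result about a list. Of 11 genes of SREBP cleavage and degradation in the endoplasmic reticulum, 2 higher and 1 lower were called at 4 µM, 3 higher and 6 lower under the G9a hairpins and 3 higher and 4 lower under the SUV39H1 hairpins. The ubiquitin-conjugating enzyme UBE2G2 fell under SUV39H1 (-0.54 ± 0.03, SE, adjusted p = 1.25e-14) and under G9a (-0.36 ± 0.03, adjusted p = 1.52e-10). UBXN8 stood at -0.67 ± 0.06 under the G9a hairpins, and ERLIN2 and MARCH6 at 0.18 ± 0.04 and -0.19 ± 0.04 at 4 µM. Of 13 genes of the non-sterol isoprenoid branch, 2 higher and 1 lower were called at 4 µM, 2 higher and 8 lower under G9a and 1 higher and 6 lower under SUV39H1 hairpins, again beside those shares. PDSS1, which makes the side chain of coenzyme Q, fell under SUV39H1 (-0.99 ± 0.05, adjusted p = 1.46e-15), and the methyltransferase ICMT fell under both (-0.34 ± 0.03 and -0.38 ± 0.03) and rose at 4 µM (0.14 ± 0.04). COQ2 stood at -0.26 ± 0.05 under G9a and RCE1 at -0.17 ± 0.05 at 4 µM.

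Of 10 genes of lysosomal and intracellular cholesterol transport, 4 higher and 1 lower were called at 4 µM, 4 higher and 1 lower under G9a and 6 higher and 3 lower under SUV39H1 hairpins. Of all genes, 10.2% were higher and 9.73% lower at 4 µM, 25.0% and 24.9% under G9a, and 35.1% and 32.7% under SUV39H1 hairpins. NPC1, the lysosomal membrane protein that exports cholesterol, was at 269, 275 and 293 CPM in DMSO, 429, 439 and 441 at 2 µM and 592, 634 and 661 at 4 µM, a rise of 1.17 ± 0.04 at the higher dose (adjusted p = 1.06e-17). NPC2, its soluble partner, rose by 0.54 ± 0.04 under G9a and 1.13 ± 0.04 under SUV39H1 hairpins (adjusted p = 7.77e-12 and 5.52e-19), and SCARB2 by 0.29 ± 0.04, 0.31 ± 0.03 and 0.78 ± 0.04 at 4 µM, under G9a and under SUV39H1 hairpins. Of 8 tested genes of the sterol sensor LXR and its targets, 1 higher and 0 lower were called at 4 µM, 1 higher and 2 lower under G9a and 1 higher and 3 lower under SUV39H1, to be read against the same shares. ABCA1, a cholesterol exporter, rose under SUV39H1 (3.28 ± 0.31, adjusted p = 4.33e-10) from 0.0736 to 0.256 CPM in scrambled to at most 2.29 CPM, while ABCG1, at 0.217 to 0.294 CPM in scrambled, had -1.22 ± 0.37 (adjusted p = 0.00573), with its libraries at 0.0241 to 0.146 CPM under hairpin 2 and at 0.0808 to 0.245 under hairpin 4, which overlapped scrambled. MYLIP and LPCAT3 stood at -0.50 ± 0.04 and -0.17 ± 0.04 under G9a, and SMPDL3A at 0.44 ± 0.07 at 4 µM.

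Of 19 tested genes of other fatty acid and glycerolipid steps, 3 higher and 3 lower were called at 4 µM, 6 higher and 9 lower under G9a and 6 higher and 9 lower under SUV39H1 hairpins. Of all genes, 10.2% were higher and 9.73% lower at 4 µM, 25.0% and 24.9% under G9a, and 35.1% and 32.7% under SUV39H1 hairpins. Here the acyl-CoA synthetase ACSL1 rose at 4 µM (0.42 ± 0.03) and under SUV39H1 (0.47 ± 0.03), LPIN2 rose under SUV39H1 (0.57 ± 0.03), the elongase ELOVL5 fell (-0.38 ± 0.03) and the acetyl-CoA synthetase ACSS2 rose (0.46 ± 0.04) under G9a, and DGAT1 fell at 4 µM (-0.30 ± 0.05). Of 4 tested genes for other sterol enzymes and acyltransferases, 1 higher and 0 lower were called at 4 µM, 1 higher and 1 lower under G9a and 2 higher and 0 lower under SUV39H1, to be read against the same shares. SOAT1, which esterifies cholesterol, rose at 4 µM (0.31 ± 0.05), LBR, another C14 reductase, fell under G9a (-0.19 ± 0.05), and C14orf1 rose under G9a and SUV39H1 (0.12 ± 0.04 and 0.48 ± 0.04). CYP27A1 rose under SUV39H1 (1.41 ± 0.37, adjusted p = 0.0015) from 0.0985 to 0.147 CPM in scrambled to 0.554 to 0.793 under hairpin 2, while hairpin 4 (0.0874 to 0.236) overlapped scrambled. Between the controls, scrambled was below DMSO for OSBPL2 (-0.33 ± 0.05), SCARB2 (-0.22 ± 0.04), ACACB (-0.42 ± 0.07) and SOAT1 (-0.25 ± 0.05) and above it for PDSS1 (0.46 ± 0.06), RABGGTB (0.29 ± 0.05), ACSL3 (0.33 ± 0.06), UBE2G2 (0.20 ± 0.03) and MYLIP (0.18 ± 0.05), with adjusted p from 7.03e-07 to 0.00332.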

How the data were processed

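RNA of 24 U937 libraries was sequenced, and the authors deposited 1 matrix of whole-number read counts per gene name. STAR, featureCounts and the genome build hg19 are named in the submitters' processing notes, with no version numbers. The authors also deposited a summed length per gene name, used here for levels per kilobase. The deposited counts per repeat name were not used here. Every library column was matched to 1 sample by its name, leaving 0 unmatched.

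The counts were filtered (edgeR filterByExpr, minimum count 10, minimum total 15), scaled by TMM and fitted with edgeR 4.0.16 (limma 3.58.1, R 4.3.3) by the quasi-likelihood test over all 24 libraries and 8 groups, and a gene was called at a Benjamini-Hochberg adjusted p under 0.05 over 20147 genes. Standard errors were taken from the test statistic, and intervals are 95%. The fit was also run on simulated data with the same spread for every gene and no outlying library. That run does not cover a library such as DMSO replicate 1. Per-library values are CPM scaled by TMM. Hairpin means weight both hairpins equally. Comparisons against one control share its libraries. Intervals and p-values cover the spread between the 3 libraries of a group, which exceeded counting noise.

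The members and lists were chosen with earlier results of these data known. Values in every library are given for members called with an absolute log2 change of at least 0.5 in a UNC0638 against DMSO, knockdown against scrambled or scrambled against DMSO comparison, and for INSIG1, INSIG2, SREBF1, SREBF2 and SCAP. They are also given for MSMO1, which did not reach that size in these comparisons and was called at 0.50 under the SUV39H1 hairpins against DMSO. In other lists, the genes named are the 2 with the smallest p among those called in a comparison. Alternatives were RLE scaling, no low-count filter, DESeq2 1.42.0, the compared libraries alone, a replicate block and each library left out. For the comparisons beyond the main 5 they were chosen after seeing the data. Some genes of the pathway and of the lists are not reported here. Figures were drawn with matplotlib 3.10.9.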

Additional observations from a re-analysis of the deposited data

Results flagged for a closer look

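The SUV39H1 hairpins, which target the same gene, differed from each other in 14 of the 30 tested members (edgeR quasi-likelihood test of hairpin 2 against hairpin 4, adjusted p under 0.05), a share near that of all genes, of which 22.0% were lower and 20.9% higher under hairpin 2. CYP51A1 (log2 difference -0.59) and FASN (-0.54) had the lowest values in hairpin 2 relative to hairpin 4. Leaving out 1 library at a time gave 11 to 14 members.

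Between G9a hairpins 2 and 3, 0 members differed by the edgeR quasi-likelihood test and 0 by DESeq2, with 1 member at an unadjusted p under 0.05 by either tool. Over all genes tested, 2 were called by edgeR and 3 by DESeq2, so the count of 0 is no result about the members.

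STARD4 was called lower under the G9a hairpins and higher under the SUV39H1 hairpins than in scrambled, and the knockdowns differed by 1.27 on the log2 scale. INSIG2 had calls in the same opposite directions and differed by 0.35, although its G9a call was lost in 6 of 9 single-library omissions.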

How the results depend on the processing

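Under RLE scaling, no low-count filter, DESeq2 and the replicate block, the number of members called in the main comparisons stayed within 1.5 times the reported number, and 0 called members changed sign under any alternative. With the compared libraries fitted alone, the members called dropped to 0 (from 3) at 2 µM UNC0638 and to 7 (from 13) at 4 µM against DMSO, and the genes called over all genes dropped to 717 (from 1444) and 1993 (from 4012); that fit has fewer libraries to estimate the spread. Leaving out 1 library gave 1 to 6 members at 2 µM (6 without DMSO replicate 1, where 2197 genes of all were called), 10 to 15 at 4 µM, 17 to 21 for the G9a hairpins, 22 to 24 for the SUV39H1 hairpins and 21 to 22 for scrambled against DMSO. At 4 µM, SREBF1 was called without DMSO replicate 3 (0.21). Between the doses the other settings gave 0 to 4 members. Libraries share replicate numbers across groups, and 6 of 21 same-numbered pairs had deviations correlated over 0.1 (-0.069 to 0.23). Among them were replicates 1 and 3 of 2 µM (0.23 and 0.12) and of 4 µM (0.19 and 0.11) with the same-numbered DMSO library. The main fit did not take the numbers as pairs, so a replicate effect shared within the inhibitor arm is not modelled in it. With the replicate number as a block, 3 members were called at 2 µM, 14 at 4 µM, 22 under the G9a hairpins, 24 under the SUV39H1 hairpins and 22 between the controls. HSD17B7 (0 to 2 reads per library) and ELOVL6 (0 to 10) did not pass the low-count filter, and the reason for their low counts was not examined.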
